A study of Mus musculus with 2 samples.

Results

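Endothelial genes were followed in ureters of E14.5 mice (days of embryonic development), as a set of 34 genes that mark the lining of blood and lymphatic vessels. The set holds receptors, transcription factors, junction proteins and secreted proteins known from endothelial cells. Its members were found by gene name. All 34 were found on the array by name, with 41 probes in 59 spots, and 32 of them were among the 21238 genes that could be tested. The 2 left out were Erg and Prox1, which did not stand well above background in enough channels.

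Smad4cKO ureters, of genotype Tbx18(cre/+);Smad4(fl/fl), were set against control ureters, of genotype Tbx18(+/+);Smad4(fl/+), all of the NMRI strain, on 2 two-colour arrays. Array 1 compared females, with Smad4cKO in green and control in red, and array 2 compared males, with Smad4cKO in red and control in green. The dyes and the sex therefore changed together, and neither the number of embryos behind an RNA nor their litters are stated in the labels. P-values measure only the spread between these samples, for the most part a spread shared by all genes. That spread may be technical, and the precision is limited by there being 2 arrays. Cre recombinase was made from the Tbx18 locus, which in the ureter is active in the mesenchyme around the epithelial tube, and not from an endothelial driver. The Tbx18 allele with Cre was present in mutants and not in controls, and the control animals carried 1 floxed Smad4 allele. Effects of the Cre allele and of Smad4 loss cannot be told apart.

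Endothelial cells line the vessels that grow into the ureteric mesenchyme. They respond to VEGF through receptor tyrosine kinases, to angiopoietins through TIE receptors, and to BMP and TGFB ligands through receptor complexes that include endoglin. Their identity is set by ETS, SOXF and SCL family transcription factors, and their surface carries junction proteins, permeability proteins and stored clotting factors. Tip cells at the front of growing vessels, arteries, veins and lymphatics each use a different part of this repertoire.

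All ratios are log2 of the channel labelled Smad4cKO over the channel labelled control, by the dye labels, and "brighter" and "dimmer" mean a ratio above or below 0. The direction is not settled by the data. Smad4 itself gave -0.69 on array 1 and -0.14 on array 2 (mean -0.42, SE 0.17, limma adjusted p = 1), and Tbx18 gave 0.07 and 0.81. The smooth muscle myosin gene Myh11 gave 2.08 and 2.65, and the BMP response gene Id1 gave 1.14 and 1.19. The authors' deposited table, whose titles name Smad4cKO first, holds a signed fold of -4.66 and -7.30 for Myh11, of -2.10 and -2.42 for Id1 and of 1.69 and 1.07 for Smad4, the opposite of the dye labels. Should those labels be swapped, each brighter gene here would be a dimmer one and each dimmer gene a brighter one, at the same size and with the same test. Of all spots, 70.3% and 69.0% in the channels labelled Smad4cKO and 68.3% and 70.1% in the channels labelled control were well above background, and 0 were saturated. Endothelium was present by its defining markers: Pecam1, Cdh5, Kdr, Tek, Tie1, Cldn5, Esam and Emcn were well above background in all 4 channels.

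Most endothelial genes of the set differed little between the channels, with more of them brighter than dimmer in the channel labelled Smad4cKO. Of the 32 tested members, 18 were brighter on both arrays (56.2%, against 19.9% of all tested genes) and 5 were dimmer on both (15.6%, against 19.8% of all tested genes). The other 9 had opposite signs on the 2 arrays (28.1%, against 60.3% of all tested genes). The median log2 ratio of the members was 0.13 (0.13 in the female pair and 0.06 in the male pair), against 0.0047 over all tested genes. The mean ratio lay above 0 for 25 of 32 members and within 0.3 of 0 for 27 of 32. These are counts without a test, since the members share the same 2 arrays and are not replicates of a condition. The set was also chosen with earlier results of these data known. Of 33 further genes listed as pan-endothelial, which need not be limited to endothelium in this tissue, 9 were brighter on both arrays and 4 were dimmer on both. The other 20 had opposite signs, and the median of the 33 was 0.02. In bulk tissue, a change in the number of endothelial cells and a change in RNA per cell cannot be told apart.

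No single member passed the test. Limma with Benjamini-Hochberg adjustment over all genes called 0 of the 32 members, and 0.00471% of all tested genes (1 gene). At an unadjusted p under 0.05, 1 member (Mmrn1) was brighter and 1 (Esm1) was dimmer, beside 455 brighter and 630 dimmer among all tested genes. No member reached 1.5-fold on each array with matching sign, a mark that 1.01% of all tested genes (215) reached. The share of members brighter on both arrays was similar for bright and dim probes. Among members at or above the median brightness of the tested genes it was 13 of 24, where all genes of that brightness gave 15.7%, and below that median it was 5 of 8, where all genes gave 24.1%.

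**Figure D1:**
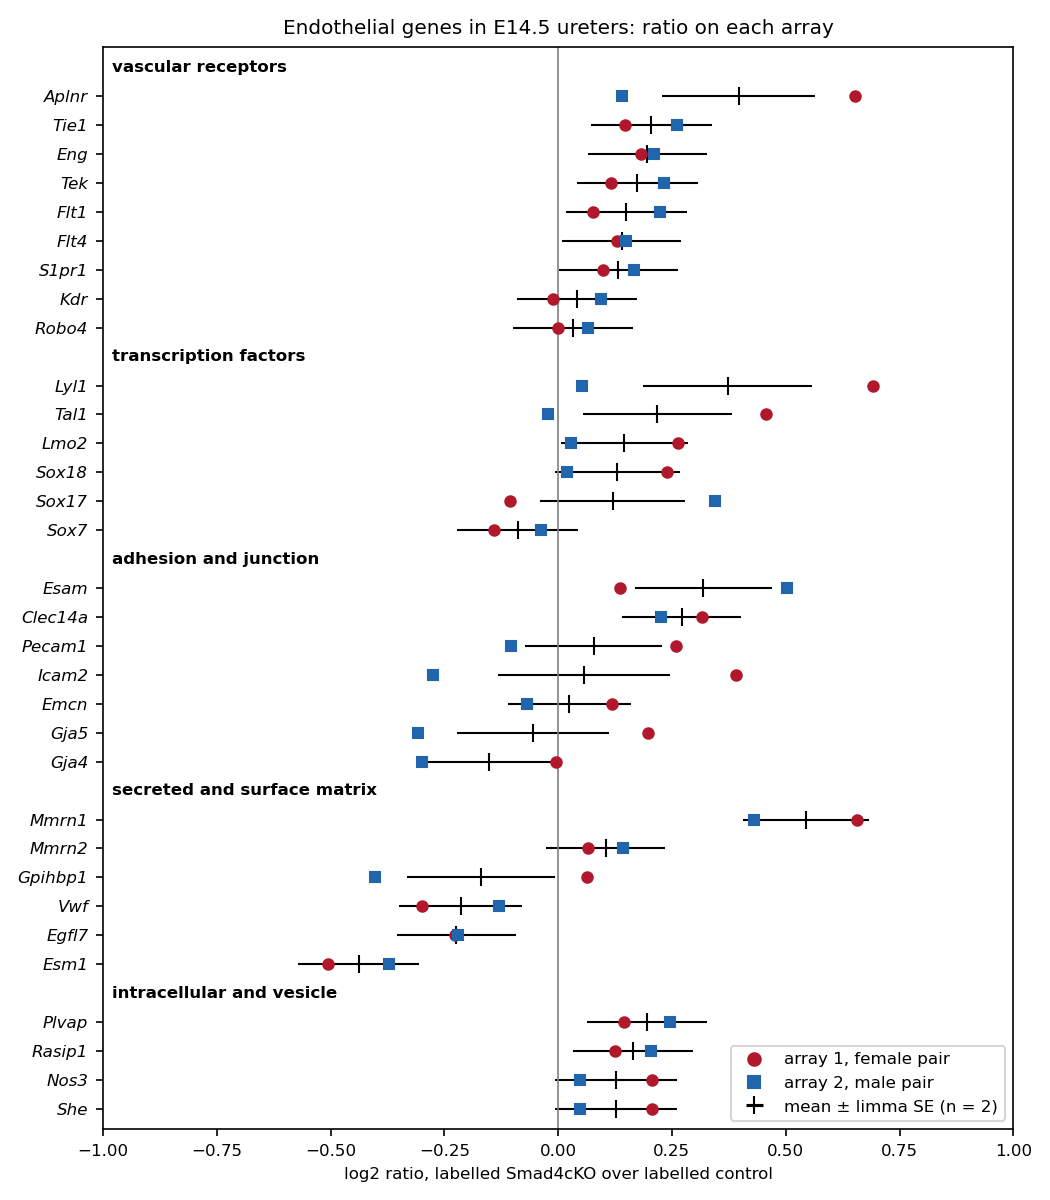
Log2 ratio of the channel labelled Smad4cKO over the channel labelled control for the 32 tested endothelial genes, grouped by role, with a circle for array 1 (females), a square for array 2 (males) and a tick with a bar for the mean of both ± limma's SE (n = 2). Mmrn1 (0.54) and Esm1 (-0.44) have the highest and the lowest mean, and most means lie between 0 and 0.3.

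**Figure D2:**
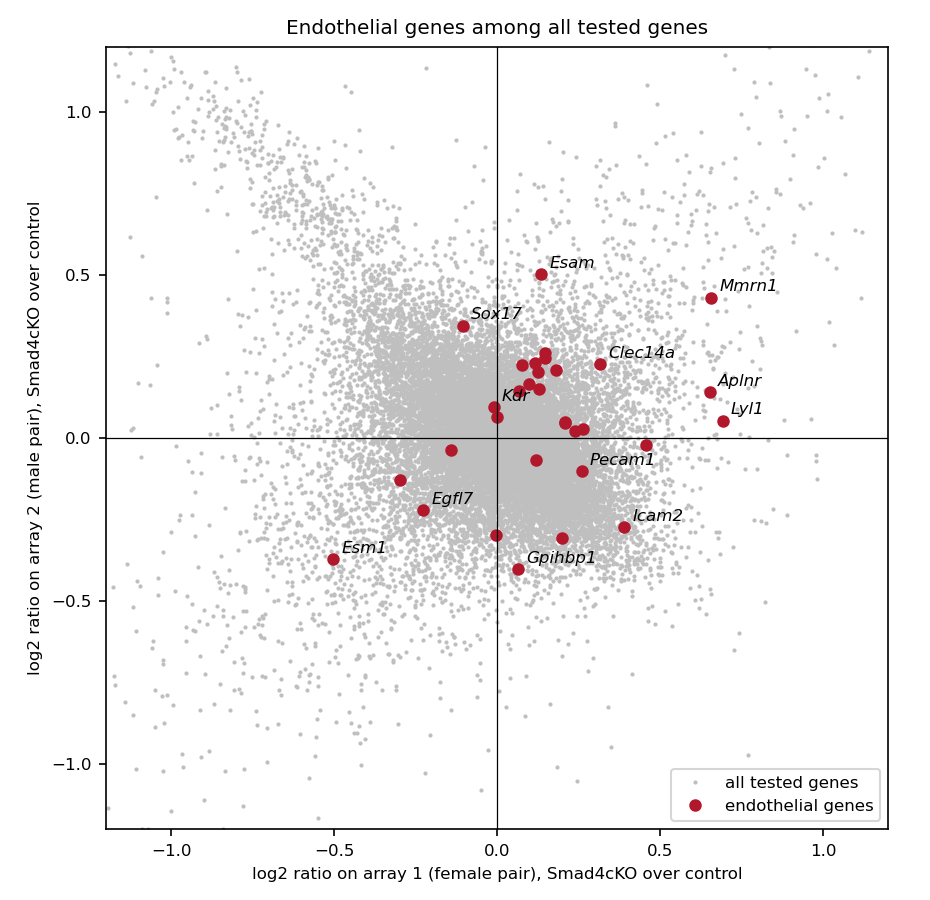
Log2 ratio on array 2 against array 1 for every tested gene (grey) and for the 32 endothelial genes (coloured). Genes in the upper right are brighter for Smad4cKO on each array (18 members) and those in the lower left are dimmer on each (5 members). The axes stop at 1.2 on either side, which leaves 103 genes and 0 members outside.

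The promoters of 4 genes are shown for the members at the ends and in the middle of this range: Mmrn1 (mean ratio 0.54), Esm1 (-0.44), and Kdr (0.04) and Robo4 (0.03), whose ratios lay closest to 0 among the vascular receptors. Each is the 300 bases from 250 before to 50 after the gene's start in RefSeq's table (build GRCm38.p6), written 5′ to 3′ on the gene's strand. Capitals mark GGAA on either strand (TTCC on the strand shown), the core letters of sites for ETS factors, the family of Erg and Fli1. Mmrn1 lies at chr6:60944067-60944366 on the plus strand, Esm1 at chr13:113209409-113209708 on the plus strand, Kdr at chr5:75978406-75978705 on the minus strand, and Robo4 at chr9:37401722-37402021 on the plus strand.
Mmrn1: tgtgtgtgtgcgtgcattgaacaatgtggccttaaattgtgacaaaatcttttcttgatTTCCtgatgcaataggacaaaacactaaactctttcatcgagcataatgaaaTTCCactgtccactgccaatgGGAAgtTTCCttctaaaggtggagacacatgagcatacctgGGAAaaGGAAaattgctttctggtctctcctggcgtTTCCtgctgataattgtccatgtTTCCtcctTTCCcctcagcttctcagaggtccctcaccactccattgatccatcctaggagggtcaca
Esm1: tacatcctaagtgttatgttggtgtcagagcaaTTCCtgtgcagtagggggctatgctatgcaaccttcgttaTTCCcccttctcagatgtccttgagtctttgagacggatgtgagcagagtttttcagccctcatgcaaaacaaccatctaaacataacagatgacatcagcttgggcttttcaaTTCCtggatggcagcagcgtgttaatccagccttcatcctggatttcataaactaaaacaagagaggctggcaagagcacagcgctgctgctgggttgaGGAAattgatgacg
Kdr: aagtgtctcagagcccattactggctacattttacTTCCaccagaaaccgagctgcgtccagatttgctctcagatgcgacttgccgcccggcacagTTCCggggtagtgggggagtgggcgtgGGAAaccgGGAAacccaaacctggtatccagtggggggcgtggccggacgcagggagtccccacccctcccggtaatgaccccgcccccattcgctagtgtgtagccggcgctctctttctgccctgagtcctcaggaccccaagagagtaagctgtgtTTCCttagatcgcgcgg
Robo4: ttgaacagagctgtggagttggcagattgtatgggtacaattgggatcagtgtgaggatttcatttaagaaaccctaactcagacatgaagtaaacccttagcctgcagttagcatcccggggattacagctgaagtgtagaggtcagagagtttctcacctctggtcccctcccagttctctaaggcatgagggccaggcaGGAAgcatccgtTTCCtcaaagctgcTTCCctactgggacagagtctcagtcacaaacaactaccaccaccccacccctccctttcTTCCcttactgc
The Mmrn1 promoter holds 9 such cores, the Kdr promoter 5, and the Esm1 and Robo4 promoters 4 each. The core is short and common: 96.0% of 32851 mouse promoters of the same length hold it, with a median of 3, and all 26 promoters found for 20 of the members hold it, with a median of 4. A longer ETS motif, CAGGAAG or CCGGAAG on either strand, was in 7 of the 26 member promoters (26.9%), against 20.9% of all promoters. It contains the core, so these counts overlap. The GC-rich SMAD box GGCGCC was in 4 of 26 (15.4%), against 11.9% of all promoters, and the SMAD palindrome GTCTAGAC was in 0 of 26, against 0.213%. These are letter matches in 1 window and say nothing about binding.

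Among the secreted and surface proteins, Mmrn1 and Esm1 stood at opposite ends. Mmrn1 encodes multimerin 1, a large soluble protein of platelets and endothelium that is also a marker of lymphatic vessels. Its probe (chromosome 6, 60938883 to 60938942, mm9) had processed signals of 597.5 and 527.4 in the channels labelled Smad4cKO on arrays 1 and 2, against 335.3 and 383.5 in the channels labelled control. Both Smad4cKO signals lay above both control signals. The log2 ratios were 0.66 and 0.43 (mean 0.54, SE 0.14, 1.46-fold, limma adjusted p = 0.443), the same direction on both arrays. Processed signals are set by the scanner software within each array. The 2 channels of an array can therefore be compared, and levels of different probes cannot. Overlap of the groups across arrays, here and below, is only a description. The share of all tested genes without overlap was not counted.

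Esm1 encodes endocan, a proteoglycan secreted by tip cells of growing vessels and induced by VEGF. Its probe (chromosome 13, 114008204 to 114008263, mm9) had 1812 and 1931 in the channels labelled Smad4cKO, against 2557 and 2507 in the channels labelled control. The groups did not overlap, and the Smad4cKO signals were the lower ones. The log2 ratios were -0.50 and -0.37 (mean -0.44, SE 0.13, limma adjusted p = 0.608), or 1.35-fold lower.

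Egfl7, a secreted regulator of vessel tube formation and the host gene of a microRNA, had processed signals of 10634 and 12743 in the channels labelled Smad4cKO, against 12535 and 14952 in the channels labelled control. It was dimmer on both arrays by nearly the same amount, with ratios of -0.23 and -0.22 (mean -0.22, SE 0.13, limma adjusted p = 1), although the signal of array 2 in the Smad4cKO channel exceeded that of array 1 in the control channel. Vwf, which encodes von Willebrand factor, the clotting protein stored in endothelial granules, had 277.7 and 298.3 in the channels labelled Smad4cKO, against 340.1 and 344.6 in the channels labelled control. Its ratios were -0.30 and -0.13 (mean -0.21, SE 0.13, limma adjusted p = 1), with both Smad4cKO signals below both control signals.

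The remaining secreted and surface proteins did not share this direction. Mmrn2, multimerin 2, an endothelial matrix protein, gave 0.07 and 0.14. Gpihbp1, which anchors lipoprotein lipase on capillaries, gave 0.06 and -0.40. Of these 6 genes, 2 were brighter on both arrays, 3 were dimmer on both and 1 had opposite signs, with a median of -0.19, the lowest of the 5 roles.

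The 9 vascular receptors were the role with the most members brighter on both arrays, 7 of 9 with none dimmer on both and a median of 0.15. The apelin receptor gene Aplnr, active in veins and sprouting vessels, had the highest mean among them, with processed signals of 5628 and 5149 in the channels labelled Smad4cKO, against 3720 and 4453 in the channels labelled control. The groups did not overlap, but the sizes differed between arrays, at 0.65 and 0.14 (mean 0.40, SE 0.17, limma adjusted p = 1). Eng, endoglin, a co-receptor for BMP9 and TGFB ligands, had 1739 and 2112, against 1536 and 1771 in the channels labelled control, and ratios of 0.18 and 0.21 (mean 0.20, SE 0.13). The Eng signals of the 2 groups overlapped across arrays and did not within an array.

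The TIE receptors, which bind angiopoietins or pair with the receptor that does, were both brighter on both arrays. Tie1 had processed signals of 1402 and 1772 in the channels labelled Smad4cKO, against 1270 and 1428 in the channels labelled control (ratios 0.15 and 0.26, mean 0.20, SE 0.13). Tek, which encodes the angiopoietin receptor TIE2, had 2941 and 3257 in the channels labelled Smad4cKO, against 2674 and 2799 in the channels labelled control (ratios 0.12 and 0.23, mean 0.17, SE 0.13). Tek signals did not overlap between the groups, and those of Tie1 did, across arrays.

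Of the 3 VEGF receptors, Flt1 and Flt4 were brighter on both arrays and Kdr stayed near 0. Kdr encodes VEGFR2, the main signalling receptor for VEGF in blood vessels. Its probe had 7054 and 8291 in the channels labelled Smad4cKO, against 7214 and 7660 in the channels labelled control, with ratios of -0.01 and 0.09 (mean 0.04, SE 0.13). A second Kdr probe gave 0.24 and 0.02. Flt1, VEGFR1, which binds VEGF with high affinity and acts largely as a decoy, had 4915 and 5079, against 4564 and 4504 in the channels labelled control, with ratios of 0.08 and 0.22 (mean 0.15, SE 0.13) and no overlap of the groups. Flt4, VEGFR3, the receptor of lymphatic growth, had 63.8 and 75.3 in the channels labelled Smad4cKO, against 53.2 and 65.9 in the channels labelled control. Its ratios were 0.13 and 0.15, and its groups overlapped across arrays. The Flt4 signals were low, though well above background in every channel. Its mean ratio was 0.14 in the main setting, 0.12 without background subtraction and 0.23 with processed signals. The limma adjusted p of Eng, Tie1, Tek, Kdr, Flt1 and Flt4 was 1.

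Of the other 2 receptors, S1pr1 was brighter on both arrays and Robo4 was close to 0. S1pr1, the sphingosine phosphate receptor that steadies vessel walls, gave 0.10 and 0.17. Robo4, a roundabout receptor of blood vessels, gave -0.00013 and 0.07.

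**Figure D3:**
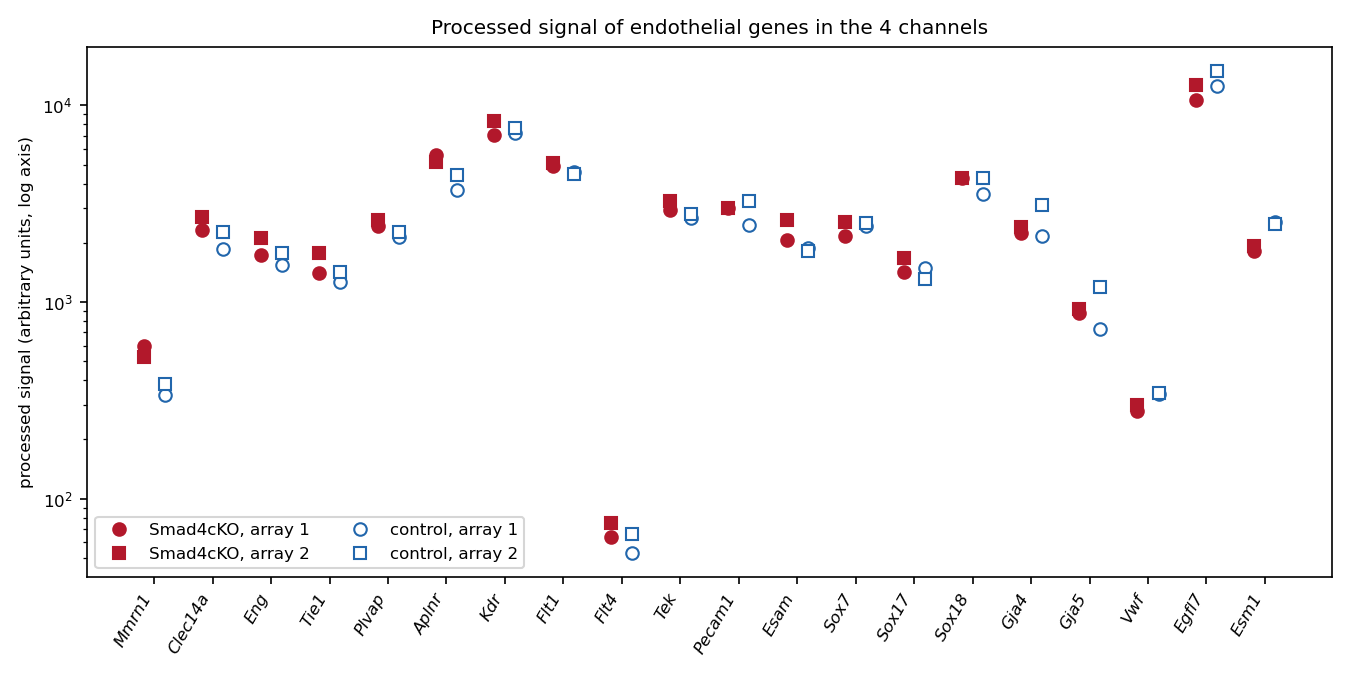
Processed signal (arbitrary units, log axis) in the channels labelled Smad4cKO (filled) and control (open) of array 1 (circles) and array 2 (squares) for the 20 endothelial genes given with signals. For Mmrn1, Clec14a, Plvap, Aplnr, Flt1, Tek and Esam both Smad4cKO signals lie above both control signals, and for Esm1 and Vwf both lie below. Some of the genes shown were chosen for having the same sign on both arrays, and members not shown, such as Lyl1 and S1pr1, also lack overlap. The share of all tested genes without overlap was not counted.

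Of the 8 transcription factors, 6 were tested, of which 3 were brighter on both arrays, 1 was dimmer on both and 2 had opposite signs. The blood and endothelial regulators Tal1, Lyl1 and Lmo2, whose products act in a shared complex in blood progenitors and endothelium, were high on array 1 and near 0 on array 2. Lyl1 gave 0.69 and 0.05, Tal1 gave 0.46 and -0.02, and Lmo2 gave 0.26 and 0.03. In each case array 1 carries the difference, and without it the 3 ratios lie between -0.02 and 0.05.

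The SOXF factors Sox7, Sox17 and Sox18, which act together in arterial and lymphatic identity, did not move as a group. Sox18 had processed signals of 4275 and 4266 in the channels labelled Smad4cKO, against 3540 and 4272 in the channels labelled control (ratios 0.24 and 0.02, mean 0.13). Sox7 had 2156 and 2560 in the channels labelled Smad4cKO, against 2440 and 2514 in the channels labelled control (ratios -0.14 and -0.04, mean -0.09). Sox17, known from arteries, had 1422 and 1673, against 1492 and 1307 in the channels labelled control, with opposite signs on the arrays (-0.11 and 0.35). A second Sox17 probe gave 0.24 and 0.01, so the 2 probes disagree on each array while both average 0.12. With processed signals, the array 2 ratios of Sox18 and Sox7 have the other sign, at -0.0022 and 0.026. The means of all 3 SOXF genes were smaller than their SE of 0.13 to 0.16.

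The ETS factor gene Erg and the lymphatic regulator gene Prox1 gave no usable ratio. The 2 Erg probes were not well above background in any channel, with signals of at most 22.7. Prox1 had 25.4 and 23.5 in the channels labelled Smad4cKO, against 45.0 and 29.8 in the channels labelled control, and stood well above background in the control channel of array 1 alone.

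Among the 7 adhesion and junction genes, signs were mixed: 2 were brighter on both arrays, 1 was dimmer on both and 4 had opposite signs, with a median of 0.06. Esam, a tight junction adhesion molecule, had 2061 and 2617 in the channels labelled Smad4cKO, against 1888 and 1825 in the channels labelled control. The groups did not overlap, with ratios of 0.14 and 0.50 (mean 0.32, SE 0.15, limma adjusted p = 1). Clec14a, a lectin-like surface protein that binds multimerin 2, had 2337 and 2697 in the channels labelled Smad4cKO, against 1857 and 2283 in the channels labelled control. Its groups did not overlap, and its ratios were 0.32 and 0.23 (mean 0.27, SE 0.13, limma adjusted p = 1), with 0.28 and 0.23 at a second probe.

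Pecam1, the platelet and endothelial cell adhesion molecule used to stain vessels, had 2994 and 3021 in the channels labelled Smad4cKO, against 2477 and 3258 in the channels labelled control. The Smad4cKO signals lay between the 2 control signals, with ratios of 0.26 and -0.10 (mean 0.08, SE 0.15). Opposite signs were also found at 2 other surface genes: Icam2, an adhesion molecule for leukocytes, gave 0.39 and -0.27, and Emcn, the sialomucin endomucin of veins and capillaries, gave 0.12 and -0.07.

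The connexin genes Gja4 and Gja5, whose products connect arterial endothelial cells, were on average a little below 0. Gja4 had 2239 and 2409 in the channels labelled Smad4cKO, against 2162 and 3109 in the channels labelled control (ratios -0.0037 and -0.30). Gja5 had 878.1 and 920.5, against 730.8 and 1194 in the channels labelled control (ratios 0.20 and -0.31). The Smad4cKO signals of both connexins lay between the 2 control signals, and on array 1 the processed signals of Gja4 gave 0.05, the other sign from its normalized ratio.

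All 4 intracellular and vesicle genes were brighter on both arrays, with a median of 0.15 and a highest mean of 0.20. Plvap, which forms the diaphragms of fenestrated capillaries, had 2432 and 2626 in the channels labelled Smad4cKO, against 2145 and 2259 in the channels labelled control, without overlap. Its ratios were 0.15 and 0.25 (mean 0.20, SE 0.13, limma adjusted p = 1), while a second probe gave 0.17 and -0.04. Rasip1, a RAS-interacting protein needed for vessel lumens, gave 0.12 and 0.20. Nos3, the endothelial nitric oxide synthase, and the adaptor gene She each gave 0.21 and 0.05.

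Repeated spots show how precise a ratio is within 1 array. The Kdr probe was printed in 10 spots, of which 9 on each array were not marked as outliers. The spots gave -0.01 ± 0.04 on array 1 and 0.09 ± 0.03 on array 2 (SD), and their ranges, -0.05 to 0.03 and 0.05 to 0.13, did not overlap. A second Nos3 probe in 10 spots gave 0.12 ± 0.05 and 0.05 ± 0.06 (SD). The spots are repeats of 1 hybridization, so their spread says nothing of animals, sex or dye. The second Kdr probe differed between the arrays in the other direction, at 0.24 on array 1 and 0.02 on array 2.

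**Figure D4:**
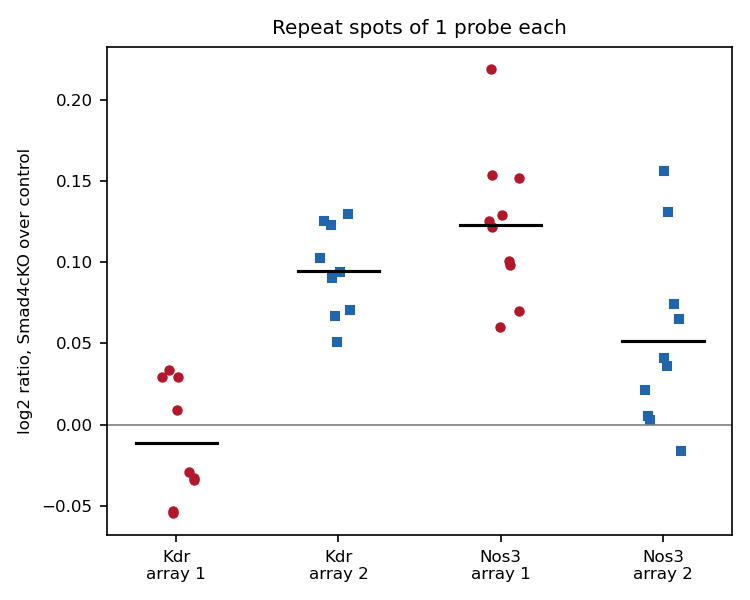
Log2 ratio of every spot of the Kdr probe and of the second Nos3 probe that was not marked as an outlier, by array. Each point is a spot and the bar is the mean. The Kdr spots of array 1 (-0.05 to 0.03) and of array 2 (0.05 to 0.13) do not overlap.

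Opposite signs mean that the same dye was brighter on both arrays. By the brightest probe, Kdr, Robo4 and Sox17 were brighter in the red channel of both arrays, though the second probes of Kdr and Sox17 were not and Robo4 on array 1 was at 0 within rounding. By the same measure Emcn, Gja5, Gpihbp1, Icam2, Pecam1 and Tal1 were brighter in the green channel of both. Because dye and sex changed together here, the 2 cannot be told apart for these 9 genes. Over all tested genes, 6065 were brighter in the red channel of both arrays and 6734 in the green channel of both.

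The ligands and co-receptors that act on these receptors gave a mixed picture. Angpt1, the angiopoietin that activates TIE2 and is made by mural and mesenchymal cells, had 872 and 925 in the channels labelled Smad4cKO, against 598 and 613 in the channels labelled control, without overlap. Its ratios of 0.49 and 0.53 (mean 0.51, SE 0.13, limma adjusted p = 0.445) were nearly equal. The TIE2 antagonist Angpt2 gave 0.40 and 0.09, Angpt4 gave -0.52 and -0.09, and the apelin gene Apln gave 0.07 and 0.20. Nrp2, a co-receptor for VEGF and semaphorins, had 4816 and 5026 in the channels labelled Smad4cKO, against 7447 and 7005 in the channels labelled control, also without overlap. Its ratios were -0.58 and -0.51 (mean -0.54, SE 0.13, limma adjusted p = 0.390). The VEGF ligand genes Vegfd and Vegfb lay near 0, at -0.09 and -0.08 and at 0.02 and 0.07. Of the 7 tested genes for VEGF ligands and co-receptors, 1 was brighter on both arrays and 2 were dimmer on both. The other 4, which are not named here, had opposite signs.

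Further genes known from vessels and outside the 34 are given beside the same shares of all tested genes, 19.9% brighter and 19.8% dimmer on both arrays. Which cells gave their signal was not measured in this bulk tissue, so they need not report on vessels alone. Of 33 genes listed as pan-endothelial, 9 were brighter on both arrays, 4 were dimmer on both and 20 had opposite signs, with a median of 0.02. The difference from the 34 members was not tested. The largest ratios of the same sign belonged to Ramp2, the adrenomedullin receptor partner (0.63 and 0.48, mean 0.55, SE 0.13, limma adjusted p = 0.390), to the scavenger receptor genes Stab2 (0.57 and 0.32) and Stab1 (0.60 and 0.29), and to Thsd1 (0.36 and 0.21). The 11 arterial genes had 4 brighter, 2 dimmer and 5 of opposite signs, with a median of 0.05: the ephrin gene Efnb2 gave 0.27 and 0.52, the Notch target gene Hey2 gave -0.25 and -0.19, Cxcr4 gave 0.15 and 0.15, and Bmx gave 0.22 and 0.09. The 8 venous and lymphatic genes had 3 brighter, 2 dimmer and 3 of opposite signs, with a median of -0.01. Among them the lymphatic chemokine gene Ccl21a gave 0.48 and 0.38, Nr2f2, the venous regulator, gave 0.10 and 0.11, Itga9 gave -0.29 and -0.29, and Pdpn gave -0.22 and -0.31.

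Markers of other cells in the ureter were read beside the endothelial genes, and their part in the result was not tested. The pericyte list holds 8 genes and is not made of markers alone, since it includes the ligand gene Pdgfb. Of these 8, 1 was brighter on both arrays and 3 were dimmer on both (median -0.12). Among them the potassium channel gene Kcnj8 gave -0.53 and -0.57, Rgs5 gave -0.43 and -0.67, Abcc9 gave -0.13 and -0.26, and Pdgfrb gave 0.01 and 0.21. The summed pericyte signal was 19261 and 23185 in the channels labelled Smad4cKO, against 21901 and 22508 in the channels labelled control. Of 11 tested macrophage genes (12 on the array), 4 were brighter on both and 0 dimmer on both, with a median of 0.32 in the female pair and -0.04 in the male pair. Among them Mrc1 gave 0.47 and 0.37, Cd68 gave 0.24 and 0.12, Ptprc gave 0.27 and 0.10, and C1qc gave 0.37 and 0.02. The summed macrophage signal was 17229 and 19038 in the channels labelled Smad4cKO, against 13402 and 19884 in the channels labelled control. Platelets also carry Vwf, Mmrn1 and Pecam1. Of 10 megakaryocyte and platelet genes on the array, 8 were tested, of which 3 were brighter and 2 dimmer on both (median 0.06). Their summed signal was 5304 and 5532 in the channels labelled Smad4cKO, against 4559 and 4798 in the channels labelled control. Most of that sum and of its difference was Pf4, with 3214 and 3351 in the channels labelled Smad4cKO, against 2502 and 2686 in the channels labelled control. Pf4 gave 0.33 and 0.32, Gp9 gave -0.13 and -0.12, Itga2b gave -0.10 and -0.06, and Itgb3 gave 0.06 and 0.08.

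Of 14 erythroid genes, 2 were brighter and 8 dimmer on both (median -0.14). The regulators Gata1 and Klf1 gave -0.52 and -0.51, and -0.57 and -0.30, and the erythropoietin receptor gene Epor gave 0.60 and 0.23. The summed erythroid signal was 258869 and 309122 in the channels labelled Smad4cKO, against 326693 and 228809 in the channels labelled control. Of the globin genes tested, Hba-a1 (-0.86 and 0.94), Hbb-bt (-0.98 and 0.95) and Hbb-y (-0.31 and 0.65) were dimmer on array 1 and brighter on array 2, Hbb-bh1 (0.48 and -0.09) had the reverse signs, and Hba-x (0.26 and 0.06) was brighter on both. Of 11 urothelial genes, 4 were brighter and 1 dimmer on both (median 0.03), with Cdh1 at 0.24 and 0.28, Upk3a at -0.17 and -0.45, Krt5 at 0.09 and 0.42, and Trp63 at 0.12 and 0.08. Their summed signal was 40499 and 48651 in the channels labelled Smad4cKO, against 39370 and 45145 in the channels labelled control. The summed signal of the 32 endothelial genes was 112335 and 119026 in the channels labelled Smad4cKO, against 103506 and 118962 in the channels labelled control, higher on array 1 and nearly equal on array 2. Bright probes weigh most in each of these summed signals, which were not tested. No gene of any of these lists passed limma's threshold or the 1.5-fold rule on both arrays.

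**Figure D5:**
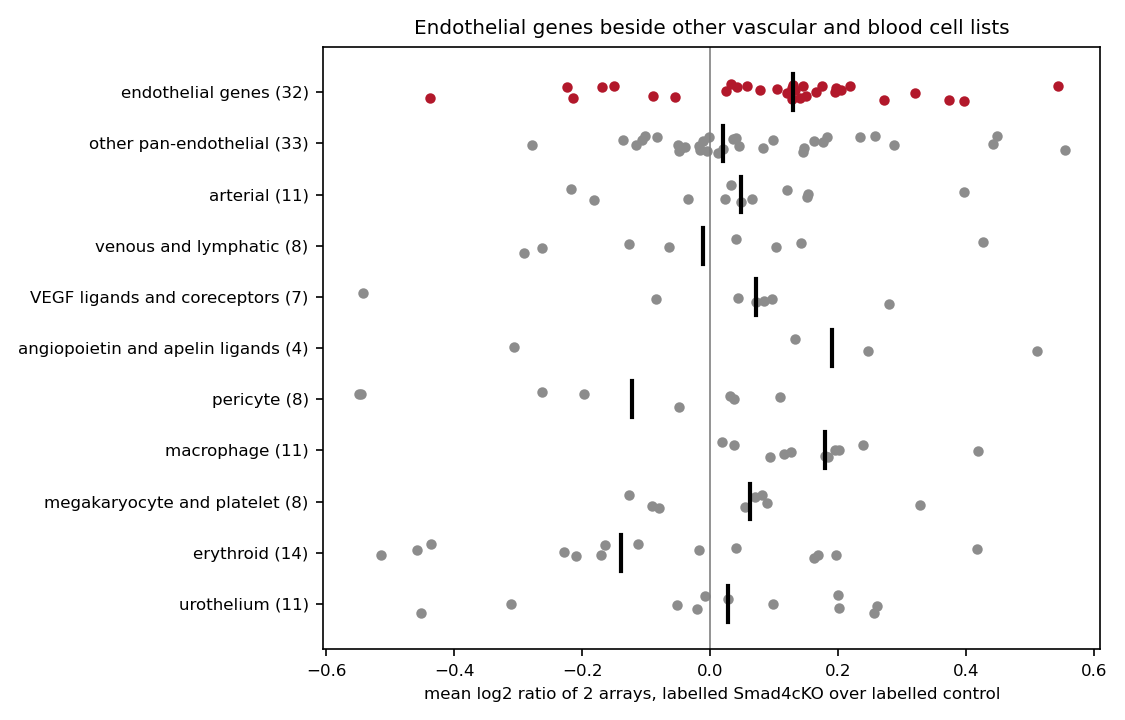
Mean log2 ratio of the 2 arrays for every tested gene of each list (points), with the median of the list as a vertical bar and the count of tested genes in parentheses. The medians run from -0.14 for the erythroid genes to 0.19 for the angiopoietin and apelin ligands, and the endothelial genes lie at 0.13.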

How the data were processed

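Ureter RNA was measured on 2 two-colour Agilent arrays, from 200 ng of total RNA per channel. Per the file headers, the deposited scanner files give each spot's intensity per channel as a mean, a background and a processed signal, and their log10 ratio of red over green was not used. The submitters' processing notes name Agilent Feature Extraction 10.7.3.1. The values deposited by the authors as a table are a signed fold or ratio, of median 1 in each column, and 11385 and 11311 of 39429 probes are at exactly 1. With the sign turned and constants of -0.00314 (array 1) and -0.0111 (array 2), its log2 values lay within 1e-06 of the processed signals' ratios at 26912 and 26979 probes. The software behind that table is not named in the labels. The slide and the scan were common to both arrays and form no batch.

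Mean signals were corrected with normexp (offset 50) and normalized by loess within each array, with control spots at weight 0 (limma 3.58.1, statmod 1.5.0, data.table of version 1.17.8, R 4.3.3). The 1377 control spots and outlier spots (237 on array 1, 221 on array 2, of 43020) were left out, and repeated spots were averaged. Tests covered the 26670 probes at which 1 labelled group, the same on both arrays, was well above background. Genes with several tested probes were represented by the brightest. Of the probes, 26412 had accessions in RefSeq's gene table, and others kept the file's name. Probe coordinates are mm9 as in the files, and their exons were not analysed here. Ratios were tested against 0 with limma (Benjamini-Hochberg, threshold 0.05), with 1 degree of freedom from the arrays and 4.89 from the prior. Its moderated SE mainly reflects the spread shared by all genes. Processed signals, given per channel, come from the scanner software and were not used in the main test.

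The members and lists were chosen with earlier results of these data known. Every member is accounted for. Signals are given for up to 10 members of the same sign on both arrays, ordered by the smaller absolute ratio, and for the VEGF and TIE receptors, SOXF factors, connexins and Pecam1. Up to 4 genes of the same sign are named per other list, of which 1 is not reported here. Smad4, Tbx18, Myh11 and Id1 are named for the direction, the endothelial markers for the tissue check, and Pdgfb for the make-up of its list. The globin genes were added after their values were seen. Alternatives covered the signal source, background correction, normalization, probe rule, dim-probe filter, outliers, the variance model and leaving out each array.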

Additional observations from a re-analysis of the deposited data

Results flagged for a closer look

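Among the endothelial genes, 9 had opposite signs in the female pair (array 1) and the male pair (array 2), whatever the size of the difference. The difference was not tested, since each pair is 1 array, and sex and dye changed together. The ratio of the female pair minus that of the male pair was 0.66 for Icam2, 0.51 for Gja5, 0.48 for Tal1, 0.47 for Gpihbp1, 0.36 for Pecam1 and 0.19 for Emcn. It was -0.45 for Sox17, -0.11 for Kdr and -0.066 for Robo4. Opposite signs do not single out the largest differences: Lyl1 and Aplnr, each of the same sign on both arrays, differed by 0.64 and 0.51. Over all tested genes, 60.3% had opposite signs, against 28.1% of the members.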

How the results depend on the processing

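With both arrays kept, no member's mean ratio changed sign under any alternative, the number brighter on both lay between 17 and 20, and the median ratio between 0.13 and 0.14. The number dimmer on both was 3 with the processed signals and 3 with the authors' value table. With an intensity trend and robust fit, limma called 1 member, Mmrn1 (adjusted p = 0.0108), and 705 genes in all. The same count over all genes was 303 with processed signals, 148 with the authors' value table, 66 with an offset of 10, 4 with probes above background in all channels, and 0 under median centring, under averaged probes per gene and when outlier spots were kept. The causes were not tested. Under the trend and robust fit, Angpt1, Nrp2, Kcnj8, Rgs5, Gata1 and Klf1 also passed the threshold, and Gata1 passed it with processed signals. With 1 array left out, the number brighter ranged over 21 to 24 and the number dimmer over 8 to 11 (on a single array 48.5% to 51.6% of all genes were brighter and 48.4% to 51.5% dimmer), members past 1.5-fold over 0 to 3, the members' median over 0.059 to 0.13 and the median of all genes over -0.0075 to 0.0088. The array with more members past 1.5-fold was array 1 (3, against 0 on array 2). The within-array ratio already pairs the channels, so the test was a paired one and no further block was left to fit. The 2 arrays, 1 per sex and dye orientation, limit every value.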
